A study of Mus musculus with 48 samples.

Results

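Cholesterol synthesis genes are 8 genes of the sterol pathway, *Hmgcs1*, *Sqle*, *Insig1*, *Idi1*, *Fdft1*, *Lss*, *Dhcr7* and *Srebf2*, which were taken by symbol from the 52636 genes of a mouse amygdala RNA-seq table. All 8 were found under 1 Ensembl identifier each. They were asked for an effect of 2 cationic amphiphilic drugs and of myelin content. The 48 libraries came from the amygdala of 48 female mice of strain C57BL/6NTac-Brd1tm1.2Arte/AborgMmucd (labelled C57BL/6NTac-Brd1), 8 to 11 weeks of age, with 8 mice in each of 6 groups. Wild type (WT) mice or mice heterozygous for a targeted *Brd1* deletion (Brd1+/-) had received vehicle, imipramine at 10 mg/kg (IMN) or fluoxetine at 5 mg/kg (FLX). All mice, the vehicle groups included, had been injected on both days of testing, had passed through tail suspension, open field and forced swim tests and were killed soon after the swim. The deletion is carried in every cell, and the heterozygotes keep 1 intact copy. Each library is a punch of the right amygdala of 1 mouse, so it holds whatever cell types and neighbouring tissue lay under the needle.

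Cells make cholesterol from acetyl-CoA by way of mevalonate, squalene and lanosterol, and the brain makes nearly all of its own because the blood-brain barrier keeps lipoproteins out. When sterol is scarce in the endoplasmic reticulum, SREBP2, the product of *Srebf2*, is carried by Scap to the Golgi, is cut there by proteases and then activates the genes of the pathway. When sterol is plentiful, Insig1 holds the complex back. Oligodendrocytes use much cholesterol for myelin and astrocytes supply it to neurons in the adult brain. Imipramine, a tricyclic, and fluoxetine, a serotonin reuptake inhibitor, are cationic amphiphilic drugs. Such drugs collect in lysosomes and, in cultured cells, can impede the passage of sterol out of them.

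Levels are given as TPM, the share of a library's transcripts scaled to a fixed total and for transcript length, which can be compared between genes. Differences are limma differences of log2(TPM + 0.1), with p-values adjusted by the Benjamini-Hochberg method over all genes tested, and a gene is said to be called at an adjusted p below 0.05. All 8 genes passed the filter on low values in each comparison. None was called between any of the groups, *Insig1* alone was called on the myelin score, beside 14.2% of all genes called with a slope above 0, so that 1 of 8 is near the background. All 8 were called on a score of striatal projection neuron markers, with lower levels in punches of higher score, beside 29.8% of all genes called below 0.

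Promoter sequence was at hand for 6 of the 8 genes in RefSeq windows of 250 bases before to 50 bases after a start on GRCm38.p6, with 1 window for *Hmgcs1*, *Insig1*, *Idi1*, *Lss* and *Srebf2* and 3 for *Dhcr7*. The letters TCACNCCAC, a consensus of the sterol element that SREBP2 binds, were searched on both strands together with CCAAT and GGGCGG, letters bound by NF-Y and Sp1. The sterol element letters were in 1 of the 8 windows of these genes, that of *Hmgcs1*, and in 1.24% of all 32851 windows. CCAAT was in 6 of the 8 windows, against 37.4% of all windows, and GGGCGG in 7 of the 8, against 35.7%. Counted by gene, each of these 2 was in at least 1 window of 6 of 6 genes. No 2 of these letter strings overlapped one another in the stretches shown. A match is a description of letters and not a site, and a window without one says only that those letters were not in it. Shown are the stretches upstream of the start and outside annotated exons for the gene that holds the sterol element letters, for the gene called on myelin and for the factor itself, all on the plus strand, at chr13:119690101-119690350, chr5:28071162-28071362 and chr15:82147019-82147180. Capitals mark the matches.

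Hmgcs1: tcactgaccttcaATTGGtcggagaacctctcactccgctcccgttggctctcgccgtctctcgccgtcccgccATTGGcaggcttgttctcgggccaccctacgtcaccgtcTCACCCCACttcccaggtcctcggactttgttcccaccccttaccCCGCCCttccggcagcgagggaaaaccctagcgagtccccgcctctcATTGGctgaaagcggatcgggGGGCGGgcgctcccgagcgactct

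Insig1: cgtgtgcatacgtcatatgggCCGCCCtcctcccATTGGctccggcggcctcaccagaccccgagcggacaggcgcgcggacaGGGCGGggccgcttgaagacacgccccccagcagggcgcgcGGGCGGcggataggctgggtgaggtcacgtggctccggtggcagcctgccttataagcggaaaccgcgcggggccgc

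Srebf2: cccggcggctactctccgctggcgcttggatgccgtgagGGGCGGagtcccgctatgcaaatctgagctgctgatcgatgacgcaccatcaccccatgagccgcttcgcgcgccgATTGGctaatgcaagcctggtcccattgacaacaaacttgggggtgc

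In the *Hmgcs1* window the sterol element letters began 137 bases before the start, between a CCAAT match on the opposite strand at 176 bases and a GGGCGG match on the opposite strand at 92 bases. *Insig1* had 1 CCAAT match and 3 GGGCGG matches and *Srebf2* had 1 and 5 over their whole windows, and neither held the sterol element letters.

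The punches differed widely in tissue content. *Brd1*, the deleted gene, was lower in heterozygotes, with group means of 32.9 to 36.9 TPM for the WT treatments against 23.4 to 26.0 TPM, and the log2 difference over all treatments was -0.54 ± 0.06 (SE, limma, adjusted p = 8.9e-07). Scores were taken as the mean log2(TPM + 0.1) of a marker list. The myelin score, from 12 genes of mature oligodendrocytes such as *Mbp* and *Mog*, ran from 4.88 to 9.33, and the striatal projection neuron score, from 6 genes such as *Drd1* and *Ppp1r1b*, from 2.25 to 9.49. In 7 libraries the striatal score was above 8.5 (WT vehicle 3, WT IMN 2 and 8, Brd1+/- vehicle 1, Brd1+/- IMN 2 and 6, Brd1+/- FLX 2). In 4 libraries a choroid plexus score was above 7 (WT vehicle 1, WT FLX 2, Brd1+/- vehicle 3, Brd1+/- FLX 8). The label of amygdala was borne out unevenly, since *Slc17a7*, the vesicular glutamate transporter of basolateral neurons, ran from 1.87 to 1346 TPM and *Prkcd*, of the central nucleus, from 8.40 to 164 TPM. Vehicle mice and drug mice carried sample codes from separate ranges, so that treatment and code range cannot be told apart.

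The 8 genes were expressed in every library. The highest median was that of *Hmgcs1*, HMG-CoA synthase, at 134 TPM, which was above 93.6% of the 18488 genes with a median of at least 1 TPM. *Srebf2*, the factor itself, followed at 88.2 TPM. *Fdft1*, squalene synthase, had a median of 53.0 TPM, *Sqle*, squalene epoxidase, 52.9 TPM, *Insig1*, the sterol-sensing retention protein, 48.8 TPM, and *Dhcr7*, the reductase that ends 1 branch of the pathway, 41.3 TPM. *Lss*, lanosterol synthase, at 21.9 TPM and *Idi1*, isopentenyl diphosphate isomerase, at 18.2 TPM were the lowest and lay near the middle of the expressed genes. The genes differed in how much they varied between mice. *Sqle* spanned a 6.05-fold range, from 12.4 to 75.2 TPM, and *Hmgcs1* a 3.97-fold range, from 60.2 to 239 TPM. *Fdft1* spanned only 1.56-fold, from 43.4 to 67.7 TPM, and *Srebf2* 1.76-fold, from 65.9 to 116 TPM. The SD within groups was 0.56 on the log2 scale for *Sqle*, 0.17 for *Fdft1* and 0.20 for *Srebf2*, beside a median of 0.36 over the expressed genes. Group accounted for 4.27% (*Sqle*) to 21.2% (*Insig1*) of a gene's total sum of squares. Means of 6 groups take up some of it without any group effect, and that part was not subtracted.

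**Figure D1:**
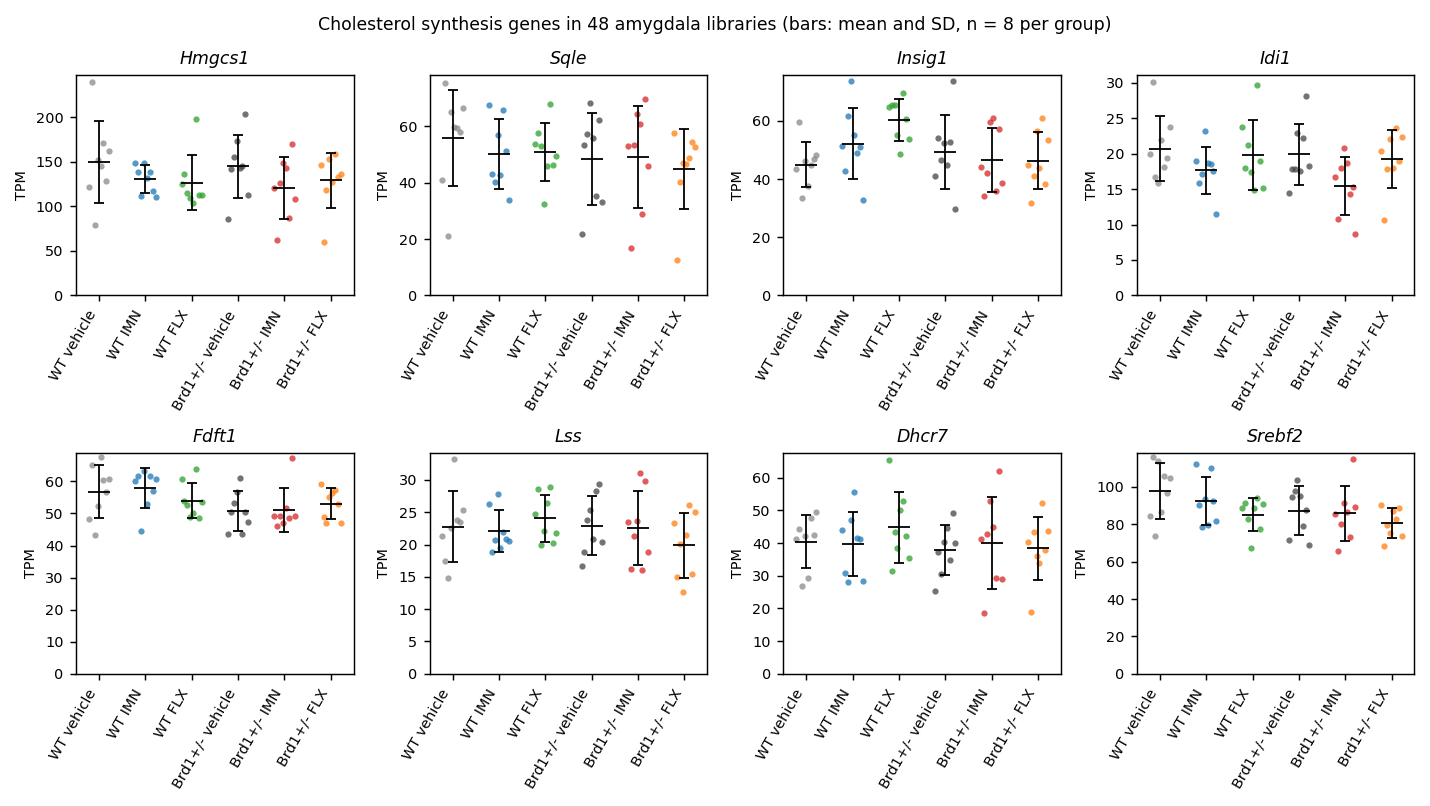
TPM (y axis, from 0) of each of the 8 genes in the 6 groups (x axis), 1 point per mouse, with the mean and SD of 8 mice in black. The points of the groups overlap for every gene. The lowest *Sqle* points are 12.4 TPM (Brd1+/- FLX 2), 16.8 TPM (Brd1+/- IMN 2), 20.9 TPM (WT vehicle 3) and 21.8 TPM (Brd1+/- vehicle 1).

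Imipramine was compared with vehicle within each genotype, to ask whether a drug that can hold sterol in lysosomes moved the pathway. The same vehicle libraries serve as controls for FLX. In WT mice *Hmgcs1* had a lowest, median and highest value of 110, 135.2 and 149 TPM with IMN and 79.4, 148 and 239 TPM with vehicle. *Idi1* had 11.5, 18.04 and 23.3 TPM with IMN and 15.9, 19.7 and 30.1 TPM with vehicle. In both genes the ranges with and without IMN overlapped. None of the 8 genes was called in WT mice (limma, smallest adjusted p = 0.97), beside 0% of all 23644 genes, and the differences ran from -0.22 for *Idi1* to 0.20 for *Insig1*. In that comparison 1084 genes, 4.58%, had an unadjusted p below 0.05, and none of the 8 was among them. The 95% confidence intervals of the 8 differences lay between -0.59 and 0.50.

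In Brd1+/- mice the largest difference was again that of *Idi1*, which had 8.61, 16.04 and 20.8 TPM with IMN and 14.4, 18.1 and 28.1 TPM with vehicle. The IMN group reached lower and less high, and the ranges overlapped. Its log2 difference was -0.39 ± 0.18 (SE, 95% interval -0.76 to -0.02, limma adjusted p = 0.508). None of the 8 genes was called, beside 0.776% of all genes, and 1 had an unadjusted p below 0.05 (limma), beside 9.3%. *Fdft1*, *Dhcr7* and *Sqle* differed by 0.01, 0.02 and -0.01. The myelin score was 6.97 with IMN and 8.00 with vehicle in Brd1+/- (exact permutation test, p = 0.0392, adjusted p = 0.118). In WT it was 7.41 with IMN and 6.50 with vehicle (exact permutation test, p = 0.155, adjusted p = 0.349). Over both genotypes, with 16 libraries against 16, none of the 8 genes was called, beside 0.0525% of all genes. An unadjusted p below 0.05 was found for 1 (limma), beside 6.36%. Of the 8 differences 6 were below 0, with a median of -0.04 for the 8 genes and -0.02 for all genes. *Idi1* was lower by the estimate in both genotypes, with a pooled difference of -0.31 ± 0.11 (limma unadjusted p = 0.012, adjusted p = 0.52). *Hmgcs1* had -0.21 ± 0.13 (adjusted p = 0.915), and the interval of *Fdft1*, the narrowest of the 8, ran from -0.12 to 0.15.

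Fluoxetine in WT mice gave the largest difference of any gene of the set between groups. *Insig1* had a lowest, median and highest value of 48.7, 62.7 and 69.5 TPM with FLX and 33.3, 45.4 and 59.5 TPM with vehicle. The vehicle mice lay below the lowest FLX mouse except for 1, WT vehicle 2, at 59.5 TPM. The means were 60.4 ± 7.22 and 44.9 ± 7.74 TPM (SD, n = 8 each), and the log2 difference was 0.43 ± 0.11 (SE, 95% interval 0.21 to 0.66, limma unadjusted p = 0.000887, adjusted p = 0.0759). It did not pass the threshold. Without WT vehicle 1, the library with the highest choroid plexus score of that group, the adjusted p was 0.046, with 4.11% of all genes called, and without each other library in turn it stayed above 0.05, up to 0.159. The myelin score was also higher in WT FLX (7.71 ± 0.63) than in WT vehicle (6.50 ± 1.301, exact permutation test, p = 0.0334, 0.118 after adjustment over 9 pairs of groups). With the myelin score as a covariate the *Insig1* difference was 0.42 ± 0.13 (adjusted p = 0.245), and with the myelin, striatal, choroid plexus and astrocyte scores together 0.24 ± 0.12 (adjusted p = 0.841). Over all the settings tried, each library left out included, the adjusted p ran from 0.046 to 0.841.

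None of the 8 genes was called for FLX in WT mice, beside 0.335% of all genes. An unadjusted p below 0.05 was found for 1 of 8 (limma), beside 16.8% of all genes. The other differences did not follow *Insig1*. *Srebf2* had 67.4, 88.8 and 93.9 TPM with FLX and 73.7, 101 and 116 TPM with vehicle, a difference of -0.19 ± 0.10 (limma adjusted p = 0.353). *Hmgcs1* differed by -0.21 ± 0.18, *Sqle* by -0.08 ± 0.22 and *Dhcr7* by 0.14 ± 0.16. Thus 5 of 8 estimates lay below 0 and 3 above. In Brd1+/- mice FLX called none, beside 0.731% of all genes, and 0 had an unadjusted p below 0.05 (limma), beside 6.94%. *Insig1* had 31.9, 44.3 and 61.0 TPM with FLX and 29.5, 49.3 and 73.7 TPM with vehicle. There its estimate was -0.08 ± 0.16 (95% interval -0.42 to 0.27, adjusted p = 0.981). Over both genotypes FLX called none, beside 0.173% of all genes, and 1 had an unadjusted p below 0.05 (limma), beside 6.89%. *Srebf2* came nearest, at -0.15 ± 0.07 (limma adjusted p = 0.68), and *Insig1* had 0.18 ± 0.11 (adjusted p = 0.833).

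**Figure D2:**
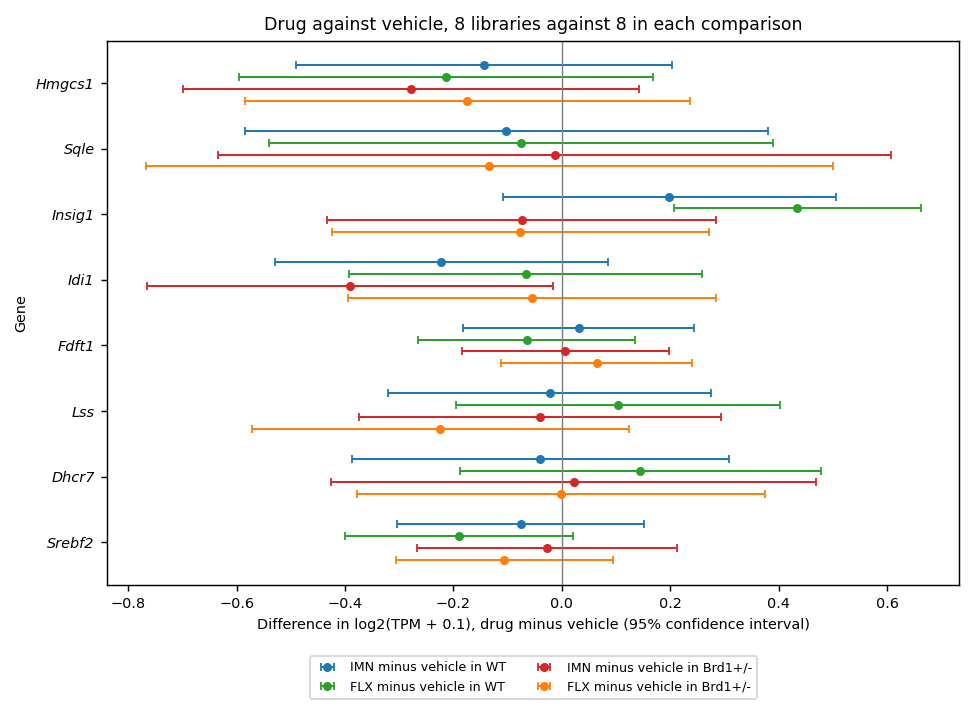
Difference in log2(TPM + 0.1), drug minus vehicle (x axis), with its 95% confidence interval, for the 8 genes (y axis) and 4 comparisons in colours, 8 libraries against 8 in each. *Insig1* with FLX in WT lies at 0.43, and the other intervals reach across 0 except that of *Idi1* with IMN in Brd1+/-, which ends at -0.02.

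The drugs were also compared with each other. FLX against IMN called none of the 8 genes in WT mice or in Brd1+/- mice, beside 0% of all genes in both. An unadjusted p below 0.05 was found for 0 of 8 in each (limma), beside 4.78% and 2.99% of all genes. The largest estimates were those of *Insig1* in WT, 0.24 ± 0.13, and of *Idi1* in Brd1+/-, 0.34 ± 0.19 (limma adjusted p = 0.858 and 1). Their intervals, -0.04 to 0.51 and -0.07 to 0.74, hold differences of more than 1.26-fold, the fold of the *Idi1* estimate (0.34 on the log2 scale), while those of *Fdft1*, -0.27 to 0.08 in WT and -0.12 to 0.24 in Brd1+/-, and of *Srebf2*, -0.31 to 0.08 and -0.29 to 0.13, do not reach that size in either direction.

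Whether the drug effect depended on genotype was tested as an interaction. None of the 8 genes was called for IMN, beside 0.536% of all genes, or for FLX, beside 1.71%. An unadjusted p below 0.05 was found for 0 and 1 of 8 (limma), beside 9.24% and 16.8% of all genes. For FLX the *Insig1* effect in Brd1+/- was lower than that in WT by an estimate of -0.51 ± 0.20 (95% interval -0.92 to -0.10, limma unadjusted p = 0.0155, adjusted p = 0.18). By the means the myelin score was 1.21 higher with FLX in WT and 0.86 lower in Brd1+/- (7.15 ± 1.61 against 8.00 ± 0.89, SD). Neither difference passed after adjustment over 9 pairs (exact permutation tests, p = 0.0334 and 0.207, adjusted p = 0.118 and 0.373). The largest difference in the myelin score lay between the 2 vehicle groups, 8.00 in Brd1+/- against 6.50 in WT (exact permutation test, p = 0.0193, adjusted p = 0.118). Both FLX differences rest on these vehicle groups, and the FLX means were 7.15 and 7.71. With that score as a covariate the *Insig1* estimate was -0.29 ± 0.20 (limma adjusted p = 0.598, from 0.0723 to 0.856 over the settings tried, each library left out included). The part of myelin in this estimate was not tested beyond that.

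The deletion itself was compared at each treatment. None of the 8 genes was called with vehicle, beside 0.708% of all genes, with IMN, beside 0.0170%, or with FLX, beside 1.54%. An unadjusted p below 0.05 was found for 0, 0 and 1 of 8 (limma), beside 8.52%, 3.58% and 16.6% of all genes. *Brd1* itself was called in these fits only with FLX (-0.49 ± 0.11, adjusted p = 0.0362). It was not called with vehicle (-0.45 ± 0.10, adjusted p = 0.0512) or with IMN (-0.68 ± 0.12, adjusted p = 0.102). A true difference of that size can thus be missed here. With FLX the *Insig1* mean was 46.3 ± 9.81 TPM for heterozygotes, below the 60.4 ± 7.22 TPM of WT, at a difference of -0.40 ± 0.12 (limma adjusted p = 0.108). That comparison shares the WT FLX libraries with the one above. Over all treatments none of the 8 genes was called, beside 0.0215% of all genes, and 2 had an unadjusted p below 0.05 (limma), beside 8.55%. All 8 estimates lay below 0, from -0.06 for *Hmgcs1* to -0.19 for *Sqle*, with a median of -0.12 against 0.01 for all genes. The 8 genes varied together between mice of a group (median r of 0.60 over their pairs), so their shared sign is not 8 observations. *Fdft1* had -0.12 ± 0.05 (unadjusted p = 0.0203, adjusted p = 0.487) and *Srebf2* -0.12 ± 0.06 (unadjusted p = 0.0485, adjusted p = 0.584). *Srebf2* lies 6.48 Mb and *Sqle* 29.4 Mb from *Brd1* on chromosome 15, so that sequence linked to the deleted allele cannot be told apart from the deletion for them.

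Myelin content was asked within groups, by a slope of each gene on the myelin score over the 48 libraries with the group in the fit. *Insig1* was called, with a slope of 0.15 ± 0.04 log2 units of TPM per log2 unit of the score (SE, 95% interval 0.07 to 0.22, limma adjusted p = 0.00163). In the 3 punches with the lowest scores, WT vehicle 4, Brd1+/- FLX 7 and WT vehicle 5, *Insig1* was 46.2, 38.5 and 37.5 TPM. In the 3 with the highest, Brd1+/- vehicle 7 and Brd1+/- FLX 4 and 6, it was 73.7, 56.4 and 61.0 TPM. *Insig1* was the only 1 of 8 genes called, beside 14.2% of all 27944 genes called with a slope above 0. In a bulk punch more cells of a type and more RNA per cell cannot be told apart. The next slopes were those of *Idi1*, 0.10 ± 0.04 (adjusted p = 0.0922), and *Dhcr7*, 0.10 ± 0.05 (adjusted p = 0.187). Both lay above 0 and did not pass the threshold.

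The other 5 genes had slopes nearer 0, and none was called. *Hmgcs1* had a slope of 0.05 ± 0.05, *Lss* 0.04 ± 0.04 and *Sqle* -0.01 ± 0.08. *Fdft1* had -0.03 ± 0.02 and *Srebf2* -0.04 ± 0.03, the lowest of the 8. The interval of *Srebf2*, -0.10 to 0.01, does not reach the slope of *Insig1*. The median of the 8 was 0.04 beside 0.00 for all genes. Within groups the score accounted for 28.4% of the variation of *Insig1*, 11.0% of that of *Idi1* and 0.07% of that of *Sqle*.

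The slope of *Insig1* kept its call without each of the 48 libraries in turn (adjusted p 0.000641 to 0.00479) and in the drug groups alone (0.18, adjusted p = 0.00104). In the 16 vehicle libraries alone it was 0.08 (adjusted p = 0.558). With the astrocyte score as a covariate it was 0.06 (adjusted p = 0.317). Then *Sqle*, *Fdft1* and *Srebf2* were called below 0, at -0.27, -0.08 and -0.11, beside 18% of all genes called below 0. With the striatal score in the fit the *Insig1* slope was 0.15 ± 0.02 (adjusted p = 3.1e-06), the smallest adjusted p of the settings tried. *Idi1* was then called too, at 0.10 ± 0.03 (adjusted p = 0.0138), beside 17.3% of all genes called above 0.

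Other genes of sterol handling were counted on the myelin score beside the 14.2% of all genes called above 0 and the 10.8% called below. Of 16 further enzymes of the pathway 2 were called above 0 and 1 below, which is no more than the share over all genes. *Lbr*, a sterol reductase of the nuclear membrane, had a slope of 0.32 ± 0.06 and *Ebp*, the sterol isomerase, 0.16 ± 0.04 (limma adjusted p = 3.21e-05 and 0.00181). The median over the 16 was 0.01. Of 5 regulators 2 were called above 0, *Srebf1*, the SREBP of fatty acid synthesis, at 0.29 ± 0.04 and *Insig2*, a paralog of *Insig1*, at 0.11 ± 0.04. *Scap*, *Mbtps1* and *Mbtps2*, which carry and cut SREBP, were not called.

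Among 6 genes of uptake and transport, *Npc1* (0.41 ± 0.02) and *Npc2* (0.33 ± 0.03), which move cholesterol out of the lysosome, were called above 0, and *Stard4* and *Lrp8* were not called. Of 9 genes of efflux and turnover 5 were called above 0 and 1 below. *Abca1*, a cholesterol exporter, had 0.29 ± 0.04 and *Apoe*, the main lipoprotein of the brain, 0.21 ± 0.04. *Cyp46a1*, the neuronal cholesterol 24-hydroxylase, had -0.29 ± 0.04. Of 9 genes of fatty acid synthesis 5 were called above 0 and none below (limma, 6 at an unadjusted p below 0.05), led by the desaturases *Scd1* at 0.43 ± 0.04 and *Scd2* at 0.35 ± 0.03. Of 11 lysosomal genes 6 were called above 0, among them *Tfeb*, at 0.50 ± 0.06, and 1 below, *Mcoln1*, at -0.08 ± 0.02. These lists stood at medians of 0.08 (uptake), 0.14 (efflux), 0.11 (fatty acids) and 0.18 (lysosome), against 0.00 for all genes. In the 14 comparisons between groups no gene of these 6 lists was called, beside 0% to 1.71% of all genes. At an unadjusted p below 0.05 (limma), FLX in WT had 4 of 16 enzymes, 1 of 5 regulators and 3 of 6 uptake genes. It had 3 of 9 efflux, 4 of 9 fatty acid and 3 of 11 lysosomal genes, beside 16.8% of all genes. There 9 of 9 fatty acid and 11 of 11 lysosomal estimates lay above 0. With FLX in Brd1+/- 1 of 9 and 4 of 11 did. The cause was not tested.

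The score of striatal projection neurons, the main neurons of the neighbouring caudate putamen, was added after the data had been seen. No pair of groups passed a test on it (exact permutation tests, adjusted p = 0.942 for each of 9 pairs, 8 libraries against 8). All 8 genes were called with slopes below 0 on it, beside 29.8% of all genes called below 0. Markers of other cell types moved with this score as well. Of 6 astrocyte markers 5 were called below 0 and 1 above, 4 of 4 markers of oligodendrocyte precursors were called below 0, and 0 of 12 myelin markers were called (limma, 0 at an unadjusted p below 0.05). Their part in the slopes of the 8 genes was not tested. *Sqle* had the steepest slope, -0.20 ± 0.02 per log2 unit of the score (95% interval -0.25 to -0.15, limma adjusted p = 2.27e-09). In the 7 punches with a score above 8.5 *Sqle* was 20.9 TPM in WT vehicle 3, 43.1 and 33.8 TPM in WT IMN 2 and 8, 21.8 TPM in Brd1+/- vehicle 1, 16.8 and 28.8 TPM in Brd1+/- IMN 2 and 6 and 12.4 TPM in Brd1+/- FLX 2. The median over the 48 libraries was 52.9 TPM, and all 7 lay below it.

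The other enzymes followed in order of *Hmgcs1* (-0.12 ± 0.02), *Dhcr7* (-0.10 ± 0.02), *Idi1* (-0.09 ± 0.02), *Lss* (-0.07 ± 0.02) and *Fdft1* (-0.03 ± 0.01, limma adjusted p = 0.0168). *Insig1* had -0.09 ± 0.02 and *Srebf2* -0.05 ± 0.01. The median of the 8 was -0.09, beside -0.03 for all genes. The interval of *Sqle* did not meet that of *Srebf2*, -0.08 to -0.03, or that of *Fdft1*, -0.05 to -0.01. Within groups the striatal score accounted for 17.7% (*Fdft1*) to 63.2% (*Sqle*) of the variation of the 8 genes.

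The number of calls depended on the 7 punches of high score. Leaving them out also takes away the top of the score's range, so lost calls do not show what the slopes rest on. *Hmgcs1* and *Idi1* then came near the threshold (limma adjusted p = 0.0507 and 0.0525), and 5 of 8 genes had an unadjusted p below 0.05. Without the 7 punches 1 of 8 genes was called, beside 7.56% of all genes called below 0. It was *Sqle*, at -0.11 ± 0.02 (limma adjusted p = 0.000631, the largest for *Sqle* over the settings tried), and the other 7 slopes, all still below 0, ran from -0.08 for *Idi1* to -0.03 for *Dhcr7*. The scale mattered as well. TPM is a share of the library, and the 13 mitochondrial mRNAs took from 86802 to 169729 TPM of it. When libraries were instead scaled by the median ratio of all genes, 5 of 8 were called, with *Sqle* at -0.16, *Lss* and *Srebf2* still below 0 but not called, and *Fdft1* at 0.00. Of all genes called on this score 75.9% lay below 0 in TPM and 50.2% with median-ratio scaling, which left 16.6% of all genes called below 0. In the vehicle libraries alone 5 of 8 were called, *Hmgcs1*, *Sqle*, *Fdft1*, *Lss* and *Srebf2*, beside 15.8% of all genes called below 0.

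**Figure D3:**
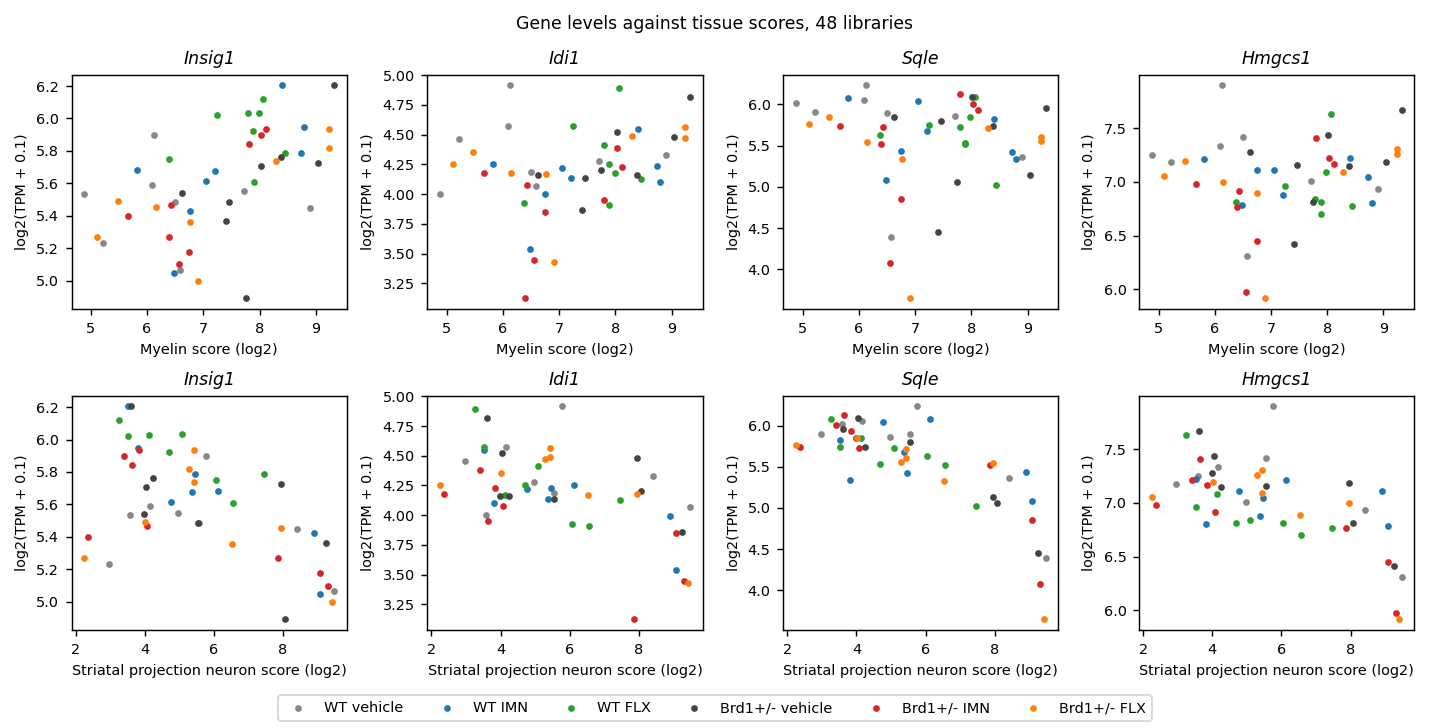
log2(TPM + 0.1) of *Insig1*, *Idi1*, *Sqle* and *Hmgcs1* (y axis) against the myelin score (upper row) and the striatal projection neuron score (lower row, x axes in log2 units), 1 point per library, groups in colours. *Insig1* goes up with the myelin score, with a slope of 0.15, and *Sqle* lies lowest in the punches with a striatal score above 8.5, down to 12.4 TPM.

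On the striatal score 29.8% of all genes were called below 0 and 9.44% above. Most further enzymes of the pathway were called below 0 on it too. Of the 16, 14 were called below 0 and none above (median -0.10), among them *Lbr* (-0.14 ± 0.03), *Sc5d*, the desaturase (-0.13 ± 0.01), *Fdps*, farnesyl diphosphate synthase (-0.13 ± 0.02), and *Cyp51*, the lanosterol demethylase (-0.13 ± 0.01). *Mvd* and *Hsd17b7* were not called. *Mbtps1*, the first of the SREBP proteases, lay above 0, at 0.12 ± 0.01, while *Scap* (-0.04 ± 0.01), *Mbtps2* (-0.07 ± 0.02) and *Srebf1* (-0.08 ± 0.03) lay below. Of 9 fatty acid genes 7 were called below 0, among them *Fads2* (-0.17 ± 0.02) and *Acaca* (-0.14 ± 0.03). Of 11 lysosomal genes 5 were called below 0, among them *Lipa*, the lysosomal lipase (-0.16 ± 0.03). Of 9 efflux and turnover genes 4 were called below 0, led by *Abcg4* (-0.18 ± 0.02), and 2 above, *Cyp46a1* (0.11 ± 0.03) and *Abcg1* (0.09 ± 0.02).

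Scores of other cell types, were also added after the data had been seen. On the astrocyte score 6 of 8 were called above 0, beside 21.9% of all genes, with *Insig1* at 0.50 ± 0.09 and *Fdft1* (0.05 ± 0.07) and *Srebf2* (0.09 ± 0.08) not called. On the neuron score the calls fell otherwise, with 4 of 8 above 0, beside 14.6% of all genes. These were *Sqle* (1.0998 ± 0.27), *Hmgcs1* (0.65 ± 0.20), *Srebf2* (0.42 ± 0.10) and *Fdft1* (0.35 ± 0.09). All 12 myelin markers and all 6 striatal projection neuron markers were called below 0 on the neuron score, beside 9.54% of all genes. With the myelin score as a covariate 7 of 8 genes were called on it, all but *Lss*, beside 15.7% of all genes, with *Insig1* at 0.74, *Idi1* at 0.74 and *Dhcr7* at 0.83. On the astrocyte score 7 of 8 were then called too, beside 24.8%, with *Srebf2* at 0.28 (adjusted p = 0.0191) among them. The neuron calls were *Fdft1* and *Srebf2* alone with median-ratio scaling, beside 8.5% of all genes, *Fdft1* alone in the vehicle libraries, beside 7.53%, and 0 of 8 in the drug libraries, beside 4.57% (limma, 4 at an unadjusted p below 0.05). So which of the 8 genes were called on which of these scores changed with the fit, and no test compared the slopes with each other.

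On the score of oligodendrocyte precursors 7 of 8 were called above 0, beside 30.4% of all genes, with *Fdft1* the exception. On the microglia score *Fdft1* alone was called, below 0 at -0.28 ± 0.08 (limma adjusted p = 0.0493), beside 1.07% of all genes. That count held in 4 of 15 other settings. It was 0 in 8 of them, among them a pseudocount of 0.01 and no filter (adjusted p of *Fdft1* 0.0521 and 0.0604), and 2 in 3 of them. These were *Sqle* and *Srebf2* with median-ratio scaling or quantile normalization, beside 6.91% and 5.54% of all genes called below 0. Without the punches of high striatal score they were *Sqle* and *Fdft1*, beside 4.42%. None was called on the endothelium score, beside 8.57% of all genes, or on the choroid plexus score, beside 9.05%. At an unadjusted p below 0.05 there were 0 and 1 (limma), beside 22.2% and 22% of all genes. All 8 were called below 0 on the log2 of the summed mitochondrial mRNAs, beside 33.7% of all genes, from -1.91 ± 0.17 for *Sqle* to -0.31 ± 0.10 for *Fdft1*. Median-ratio scaling moved the median slope of all genes by -0.14 on the astrocyte score, -0.16 on the precursor score and 0.32 on the mitochondrial score, and the calls became 3, 4 and 6 of 8, beside 10.2% and 14.1% of all genes called above 0 and 16.4% called below. Without the 7 punches of high striatal score the calls became 1 of 8 on the astrocyte score (*Insig1*, beside 8.54% of all genes). They became 0 on the precursor score (beside 3.34%) and 2 on the mitochondrial score (*Sqle* and *Srebf2*, beside 9.42%). At an unadjusted p below 0.05 there were 2, 1 and 7 of 8 (limma). In the vehicle libraries alone they were 0 on the astrocyte score, beside 0.931% (limma, 3 at an unadjusted p below 0.05).

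**Figure D4:**
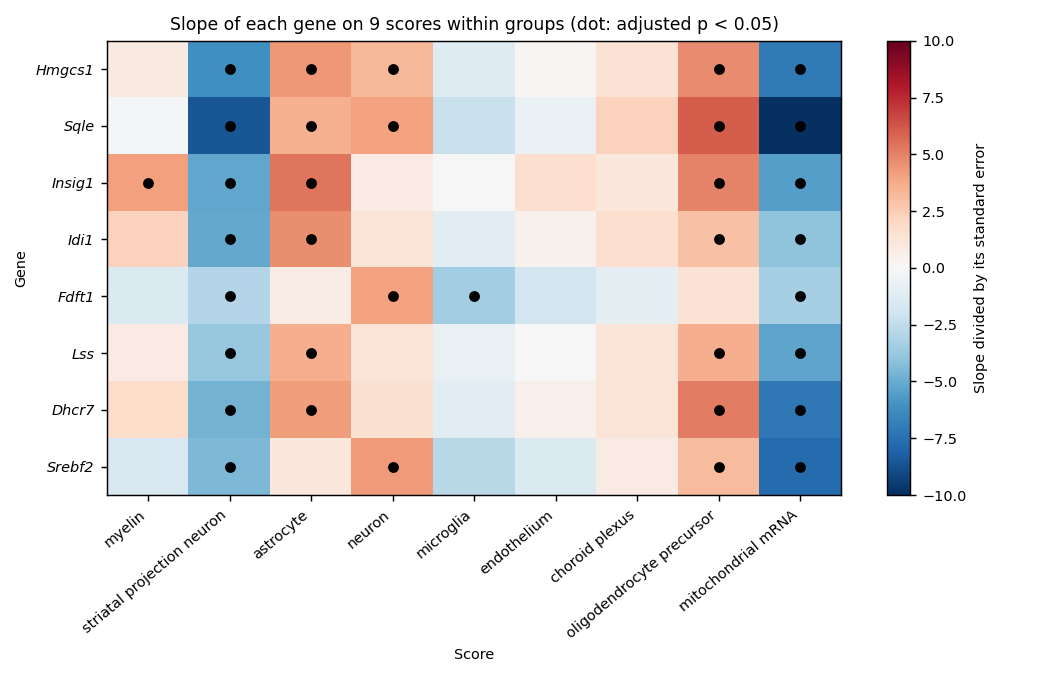
Slope divided by its standard error (colour, red above 0 and blue below 0) for the 8 genes (y axis) on 9 scores (x axis) over 48 libraries with the group in the fit. Dots mark an adjusted p below 0.05: 8 of 8 on the striatal and mitochondrial scores, 1 of 8, *Insig1*, on myelin.

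Between mice of the same group the 8 genes went up and down together. After each gene was centred on its group mean, all 28 pairs had a Pearson's r above 0 over the 48 libraries, and 27 of them were above 0.3. The median was 0.60. *Hmgcs1* and *Sqle* were the closest pair (r = 0.91, Spearman's rho = 0.88) and *Insig1* and *Fdft1* the loosest (r = 0.26). By its median r with the other 7, *Hmgcs1* stood first at 0.73 and *Fdft1* last at 0.41. These values are descriptions without a test. Genes of a library share its punch, its tissue content and its TPM total, and their part in these values was not tested.

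**Figure D5:**
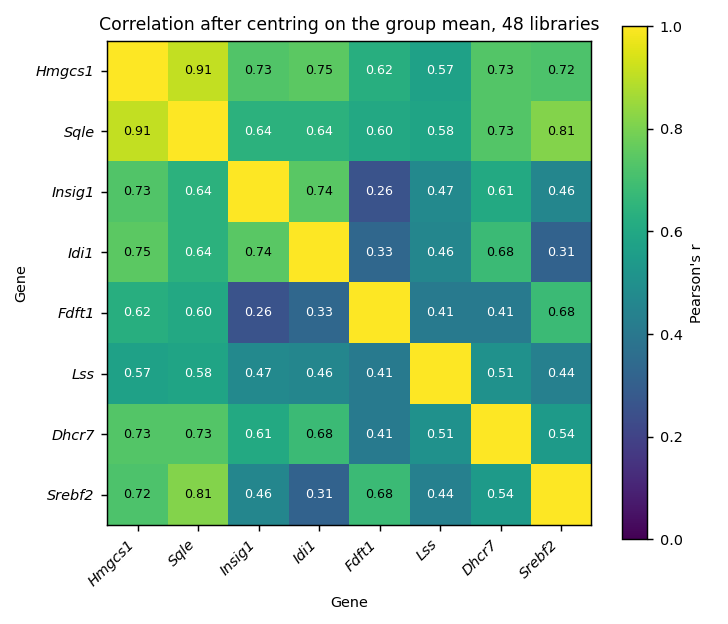
Pearson's r between the 8 genes (both axes) over 48 libraries after centring on the group means, colour from 0 to 1. The highest value is 0.91, *Hmgcs1* with *Sqle*, and the lowest 0.26, *Insig1* with *Fdft1*.

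The genes outside the set most like it were sought by the r of each gene with the mean centred z-score of the 8, over 18480 genes with a median of at least 1 TPM, where the median r was 0.26. Among the first 10 were *Gm3571* (0.92), *Fdps* (0.92), *Cyp51* (0.91), *Nsdhl* (0.90), *Tuba1a* (0.89), *Gm11223* (0.89), *Gm17383* (0.89) and *Plk3* (0.89). Of these, *Fdps*, *Cyp51* and *Nsdhl* are sterol enzymes from the 16 listed. *Gm3571*, *Gm11223* and *Gm17383* are annotated as processed pseudogenes, so their reads may belong to a parent gene and their levels are uncertain. The 16 enzymes had a median r of 0.75, with *Hsd17b7* lowest at 0.31, the fatty acid genes 0.64, the lysosomal genes 0.37 and the efflux genes 0.13. *Mbtps1* lay at the other end, at -0.66, below the r of -0.63 that bounds the lowest 2.5% of genes.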

How the data were processed

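The authors sequenced single-end libraries of total RNA from amygdala punches. Per the labels' processing notes they used FastQC, Trimmomatic, HISAT2 2.1.0 and StringTie 1.3.4 on GRCm38, and deposited TPM values per gene and library, which sum to 999524 to 999772. The study's methods give a minimum of clean reads for all samples, the depth of each library is not known from TPM, and the strand setting of the counting is not given in the sources used here. The study's methods tested counts with edgeR, but TPM is not a count, so limma 3.58.1 (R 4.3.3, eBayes with trend) was fitted to log2(TPM + 0.1) over every gene with at least 0.1 TPM in at least 8 libraries of the fit. Differences on this scale understate the change of low genes.

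Groups were taken from the sample titles. Pairs of groups were fitted alone, pooled drug effects with genotype, interactions in 4 groups, and slopes on a score with the group in the fit over 48 libraries. The 9 myelin score comparisons used the exact permutation test over 12870 arrangements, two-sided. Symbols were matched for 52403 of 52636 identifiers, and gene positions are those of GENCODE M21. Named were the 8 genes, *Brd1*, called genes of 6 fixed lists (at most 5 per list and direction) and the 10 genes most like the 8. Some genes that this rule names are not reported here. The members and lists were chosen with earlier results of these data known. On simulated data the FLX fit in WT recovered 51.1% of genes changed by 1 log2 unit and 77.4% by 2, over 23557 genes. The IMN interaction fit recovered 33.3% at 1 and 68.5% at 2, over 26673 genes. The slope on the myelin score recovered 38.2% at 0.25 and 71.1% at 0.5, over 27944 genes. The differences of the 8 genes between groups, and their myelin slopes with group alone in the fit, were smaller than these sizes. Recovery at their size was not simulated. The changed genes were drawn from the genes that passed the filter, markers excepted, so the recovered shares need not hold for the 8 genes. In the FLX fit in WT the SE of the 8 genes ran from 0.095 (*Fdft1*) to 0.22 (*Sqle*). Alternatives were another pseudocount, filter, scaling, spread estimate, tissue covariates, a sample code term, a replicate block, fewer libraries, and each library left out. The sample code term split low from high codes within vehicle and within drug mice, so it cannot part treatment from code range.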

Additional observations from a re-analysis of the deposited data

Results flagged for a closer look

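Of 48 sets of 8 libraries (8 genes in 6 groups), 5 had a highest or lowest library whose gap to its neighbour was over 0.526 of the range of the group, where chance gives about 1 in 20. Brd1+/- FLX 2 was lowest for 3 genes, with *Hmgcs1* at 60.2 TPM against 119 TPM in the next library (gap 0.595 of the range), *Sqle* at 12.4 against 40.2 TPM (0.617) and *Idi1* at 10.7 against 17.9 TPM (0.559). The striatal projection neuron score of that library was 9.41, the highest of its group. WT FLX 6 was highest for *Hmgcs1*, at 198 against 135.9 TPM (0.663). Brd1+/- IMN 7 was highest for *Fdft1*, at 67.3 against 51.8 TPM (0.729).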

How the results depend on the processing

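Between groups 0 of the 8 genes were called in each of 14 comparisons, under 13 or 14 alternatives each. Leaving out 1 library at a time gave 0 in each of them, except for FLX against vehicle in WT, where the count ran from 0 to 1. The 1 was *Insig1*, without WT vehicle 1, when 956 genes were called in place of 79. On the myelin score 1 gene was called, beside 14.2% of all genes called above 0. With median-ratio scaling there were 2 (*Insig1* above 0, beside 13.7%, and *Srebf2* at -0.06, beside 13.2% called below 0). With the striatal score as a covariate 2 were called above 0, beside 17.3%, and with the astrocyte score 3 below 0, beside 18%. In vehicle libraries alone 0 were called (limma, 0 at an unadjusted p below 0.05), beside 3.81% called above 0. On the striatal score 8 were called, beside 29.8% of all genes called below 0. There were 5 with median-ratio scaling, beside 16.6%, and 5 in vehicle libraries alone, beside 15.8%. Without the punches of high striatal score there was 1, beside 7.56% (limma, 5 at an unadjusted p below 0.05). When 1 library was left out there were 7 to 8. Slopes that turned over were those of *Fdft1* on the striatal score (0.0035, median-ratio scaling) and on the mitochondrial score (0.0585, median-ratio scaling, and 0.0038, quantile normalization), of *Srebf2* on the precursor score (-0.0042, median-ratio scaling) and of *Idi1* on the precursor score (-0.0683, without the punches of high striatal score), none of them called. The cause was not tested. Samples with the same replicate number did not deviate together (r above 0.1 in 1 to 4 of 8 pairs, own number the best match in 0 to 2 of 8), and with a replicate block the count between groups was 0 and that on the myelin score 1. Leaving out punches, adding covariates and scaling libraries were partly chosen after seeing the data. The number of mice limits precision, and the depth of each library is not known from TPM.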
